A study of Homo sapiens with 8 samples.

Results

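The genes described here are the human potassium channel genes, taken as the protein-coding genes whose symbols start with KCN, without antisense and intronic transcripts, that had a mean of at least 10 estimated reads per library. Of 96 such coding genes among 62826 listed genes, 72 reached that level and 24 did not. KCNC2, with a mean of 9.75 reads, was the nearest gene below the limit, and KCNE4 (10.0), KCNG3 (10.5), KCNE3, KCNG1 and KCNS3 (11 each) lay just above it. KCNE3, KCNE4, KCNG1 and KCNG3 reached it only through the treated libraries, with vehicle means of 0.5, 4.0, 0.75 and 7.5 reads, so counts over the 72 describe the genes that passed and not the whole family.

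Potassium channels let potassium ions leave or enter a cell and so set its resting membrane potential, end its action potentials and time its firing. Most pores are built from several subunits. Voltage-gated pores open on depolarisation, inward rectifiers and two-pore channels carry current at rest, and a further group opens on intracellular calcium or sodium. Auxiliary and electrically silent subunits carry no current of their own and change the gating or the trafficking of the pores. In midbrain dopamine neurons these channels are known for pacing spontaneous firing and for linking firing to the metabolic state of the cell through ATP-sensitive channels.

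Libraries came from LUHMES cells, an immortalised line from human embryonic midbrain, wild type per the labels, grown for 6 days in differentiation medium with dbcAMP (1 mM), GDNF (2 ng/mL) and tetracycline (1 µg/mL). Treated cells had antimycin A (25 µM), which blocks complex III of the respiratory chain, together with oligomycin (10 µM), which blocks the mitochondrial ATP synthase, for 8 h, and vehicle cells had DMSO. Each group held 4 libraries, numbered by differentiation from 2 to 5, of 93811420 to 109194618 estimated reads in the treated group and 93717712 to 110020746 in the vehicle group. The series text calls the differentiation batches independent, 4 in each group, and gives 4 technical replicates per batch, so the tests measure the spread between batches of 1 cell line. Vehicle replicate 2 stood apart from the other vehicle libraries, with a chi-square per degree of freedom of 283 to 394 against them, where the other vehicle pairs gave 12.8 to 36.3 and the treated pairs 13.9 to 108.

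The label of dopaminergic neurons held for part of its markers. SLC6A3, the dopamine transporter, averaged 326 TPM (a level corrected for transcript length) in treated and 366 TPM in vehicle libraries, and TH, the first enzyme of dopamine synthesis, averaged 24.9 TPM in treated and 10.6 TPM in vehicle libraries. Of the 12 markers listed for these neurons 7 could be tested, of which TH and KCNJ6 rose and EN1 and DDC fell. EN1 averaged 16.7 TPM in treated and 29.7 TPM in vehicle libraries (log2 change -0.80 ± 0.19, edgeR adjusted p = 0.0050), and NR4A2, at 6.75 TPM in treated and 7.36 TPM in vehicle libraries, did not pass. LMX1A had no read in any library, FOXA2 had none in the treated libraries and 0.00225 TPM in the vehicle libraries, and SLC18A2, DDC, PITX3 and ALDH1A1 were all under 1 TPM. Of the 9 pan-neuronal markers 3 rose and 4 fell, with sums of 4046 to 4163 TPM in treated and 4284 to 5710 TPM in vehicle libraries. Of the 6 cycling or progenitor markers 2 rose and 4 fell, with sums of 158 to 180 TPM and 175 to 273 TPM. Of 7 astrocyte markers 4 could be tested, of which SLC1A3 rose and GJA1 and SLC1A2 fell, and their sums were 31.4 to 34.3 TPM in treated and 23.5 to 28.4 TPM in vehicle libraries, with GFAP at or near 0. Of 6 oligodendrocyte markers 2 fell and none rose, with sums of 25.6 to 33.1 TPM and 38.4 to 62.4 TPM, and the 5 microglial markers summed to at most 0.136 TPM. These marker counts stand beside 27.7% higher and 30.2% lower among all genes tested (edgeR, adjusted p under 0.05). The part of the marker shifts in the results below was not tested.

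The treatment was compared with vehicle across the potassium channel genes to ask which channel types moved with it. Inward rectifiers mostly rose, led by KCNJ11 and KCNJ2. The electrically silent subunit KCNS2 and the axonal pore gene KCNA2 fell, and in the Kv4, Kir2 and BK families different members moved in opposite directions. Of the 72 genes, 31 were higher and 14 lower in the treated libraries, and 27 did not pass an adjusted p of 0.05 (edgeR quasi-likelihood test, Benjamini-Hochberg over all genes tested). That is 62.5% called, against 57.9% of the 19785 genes tested overall and 59.2% of the 14636 coding genes among them. Of the channel genes 43.1% were higher and 19.4% lower, against 27.7% higher and 30.2% lower among all genes tested. A change of at least 1 on the log2 scale, with the same threshold, was called for 25 channel genes (17 higher and 8 lower), or 34.7%, against 17.3% of all genes. The median log2 fold change was 0.17 over the channel genes and -0.02 over all genes, and the median size was 0.66 and 0.41. In CPM (reads scaled to library size) the 4 treated and 4 vehicle values did not overlap for 42 channel genes (28 above and 14 below vehicle), or 58.3%, against 53.4% of all genes. The rises in each of these counts include KCNE3, KCNE4 and KCNG1, which reached the read limit only through their treated libraries. Their direction was therefore set by the choice of genes. These shares describe the list and were not tested against other lists. In RNA from a whole culture, fewer cells of a type and less RNA per cell cannot be told apart.

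**Figure D1:**
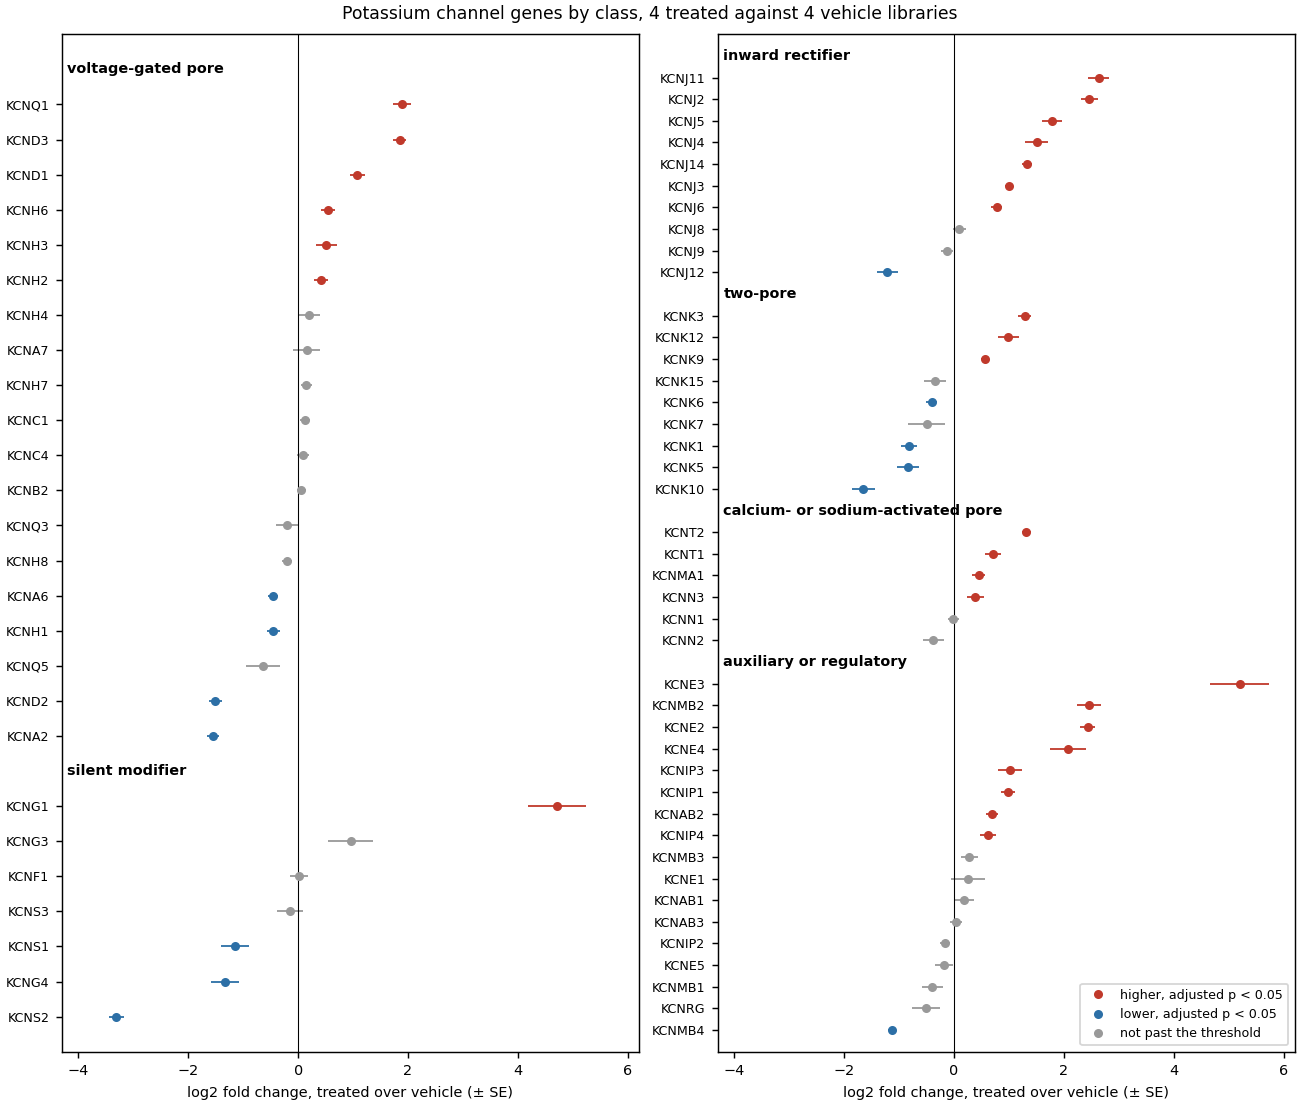
Log2 fold change of treated over vehicle libraries for 68 potassium channel genes, by class, from the edgeR quasi-likelihood fit (n = 4 each, bars are the SE, red higher and blue lower at an adjusted p under 0.05, grey not past the threshold). Inward rectifiers lie mostly to the right of 0, and KCNS2 at -3.31 is the lowest; the points of KCNE3 and KCNG1 rest on 2 and 3 vehicle reads.

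KCNH2, the ERG pore known for repolarising heart muscle and for slowing neuronal firing, had 54.1, 54.1, 54.8 and 47.5 TPM in treated libraries, against 29.7, 44.2, 39.5 and 41.4 TPM in vehicle libraries. In TPM all treated libraries were above all vehicle libraries, while in CPM treated replicate 5 (62.6) lay among the vehicle values. The test called it higher by 0.41 ± 0.13 on the log2 scale (edgeR, adjusted p = 0.017), and scaling to library totals alone gave 0.31 (adjusted p = 0.082). Of its reads 70.7% were assigned to coding transcripts. The coding KCNH2-201 averaged 5238 reads in treated and 4882 in vehicle libraries. KCNH2-206 and KCNH2-205, annotated with a retained intron, averaged 1992 and 633 in treated and 1258 and 303 in vehicle libraries. Transcript usage of KCNH2 did not pass (edgeR diffSpliceDGE, Simes adjusted p = 0.81). KCNJ3 and KCNT2, described below, followed at 40.5 ± 3.20 and 37.3 ± 1.88 TPM in treated libraries and 22.7 ± 3.21 and 16.0 ± 2.40 TPM in vehicle libraries (SD, n = 4 each). KCNB2, a delayed rectifier pore, had 16.0, 18.6, 18.7 and 20.9 TPM in treated and 17.2, 18.5, 17.9 and 19.6 TPM in vehicle libraries. Its groups overlapped throughout, and its log2 change of 0.06 ± 0.09 had an adjusted p of 0.58. Of the 72 genes, 13 had a mean over 10 TPM and 30 a mean under 1 TPM. The summed TPM of all 72 was 519 ± 13.4 in treated and 481 ± 61.9 in vehicle libraries, where vehicle replicate 2 reached 390 and its group's remaining libraries 497 to 520.

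**Figure D2:**
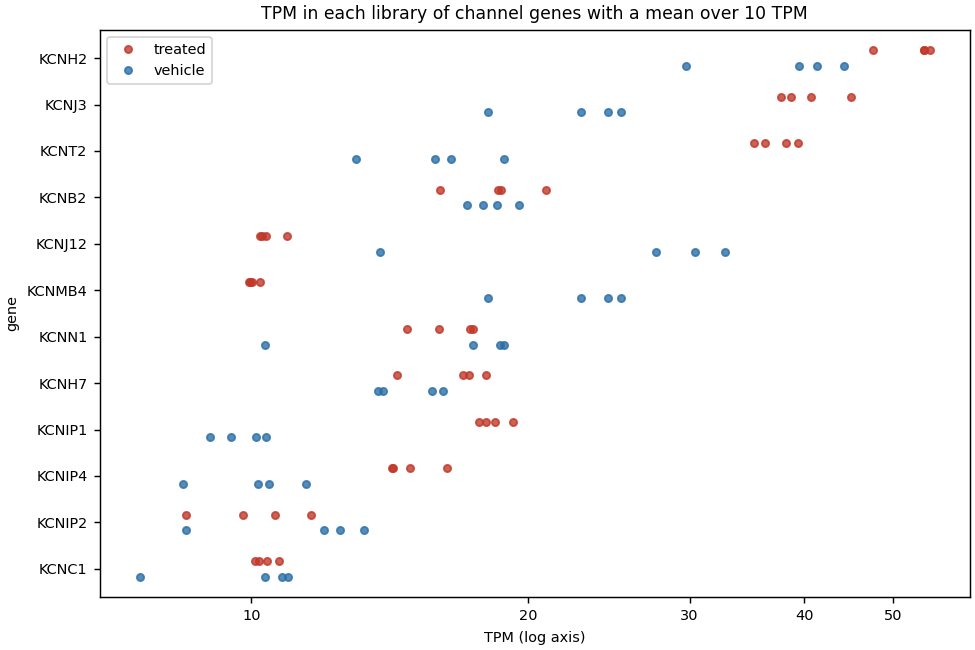
TPM in each library for 12 potassium channel genes with a mean over 10 TPM (log axis, treated points above vehicle points for each gene, 4 libraries each). KCNH2 lies at 47.5 to 54.8 TPM in treated and 29.7 to 44.2 TPM in vehicle libraries, KCNJ3 and KCNT2 lie higher in all treated libraries, and KCNMB4 and KCNJ12 lie lower.

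Among the inward rectifiers, 7 of 10 genes rose and 1 fell, with a median log2 change of 1.16. That is 80.0% called, against 57.9% of all genes tested. Summed over the 10 genes, TPM was 68.35 to 75.15 in treated and 39.37 to 70.69 in vehicle libraries, so the sums overlapped. KCNJ11 encodes the pore of ATP-sensitive channels, which close when ATP is plentiful and open when it falls. It lies on chromosome 11 (hg38, 17385859 to 17389331, minus strand). It had 3.28, 3.80, 3.31 and 3.50 CPM in the treated libraries, against 0.331, 0.660, 0.670 and 0.561 CPM in the vehicle libraries. Every treated value was several times the highest vehicle value, and the log2 change was 2.63 ± 0.20 (edgeR, adjusted p = 2.3e-06). KCNJ8, which encodes the other ATP-sensitive pore, did not pass the test (0.10 ± 0.12, adjusted p = 0.5). By TPM, KCNJ11 was 30.8 ± 3.01% of the sum of both pores in treated libraries and 7.20 ± 1.21% in vehicle libraries. The sulfonylurea receptor genes, whose products surround these pores, moved apart: ABCC8 fell by 0.59 ± 0.16 on the log2 scale and ABCC9 rose by 0.30 ± 0.06 (edgeR, adjusted p = 0.0083 and 0.0029).

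The Kir2 family, strong rectifiers that hold the resting potential, had 3 genes higher and 1 lower. KCNJ2 had 2.63, 3.0, 2.93 and 3.44 CPM in treated libraries, against 0.551, 0.425, 0.534 and 0.656 CPM in vehicle libraries, a log2 change of 2.47 ± 0.16 (edgeR, adjusted p = 8.6e-07). KCNJ4 had 6.55, 6.44, 6.18 and 4.27 CPM in treated and 1.25, 2.45, 2.41 and 2.14 CPM in vehicle libraries (1.5 ± 0.21, edgeR adjusted p = 1.9e-04). KCNJ14 had 6.71, 6.89, 6.57 and 6.74 CPM in treated and 2.31, 2.88, 2.60 and 2.90 CPM in vehicle libraries (1.33 ± 0.10, adjusted p = 2.0e-06). None of these groups overlapped. KCNJ12, the most abundant of the family by TPM in both groups, went the other way. It had 27.5, 29.1, 26.9 and 24.0 CPM in treated libraries, against 36.6, 64.6, 73.0 and 75.2 CPM in vehicle libraries. All treated values lay below all vehicle values, although vehicle replicate 2 was well under the other vehicle libraries. Its log2 change was -1.21 ± 0.19 (edgeR, adjusted p = 3.8e-04), and -1.40 without vehicle replicate 2. KCNJ18 is nearly identical to KCNJ12 and was listed with a mean of 2.23 reads, so how reads were divided between the pair is uncertain. By TPM, KCNJ12 made up 49.8 ± 0.741% of the Kir2 sum in treated libraries and 86.8 ± 1.38% in vehicle libraries (SD, n = 4 each). The Kir2 sum itself was 21.0 ± 0.693 TPM in treated and 30.05 ± 9.47 TPM in vehicle libraries. It was 16.2 TPM in vehicle replicate 2 and 32.2 to 37.1 TPM in the remaining vehicle libraries.

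Of the GIRK genes, whose channels open on binding G protein beta-gamma subunits, 3 rose and KCNJ9 did not pass the test. KCNJ3 had 78.3, 82.0, 85.1 and 95.4 CPM in the treated libraries, against 42.3, 41.1, 43.5 and 44.4 CPM in the vehicle libraries. The groups lay far apart, with a log2 change of 0.99 ± 0.07 (edgeR, adjusted p = 2.0e-06). KCNJ5 had 2.55, 2.23, 2.08 and 1.76 CPM in treated and 0.529, 0.488, 0.738 and 0.751 CPM in vehicle libraries (1.78 ± 0.18, adjusted p = 2.2e-05). KCNJ6, the GIRK subunit used to mark ventral midbrain dopamine neurons, averaged 7.66 ± 0.735 CPM in treated and 4.47 ± 0.424 CPM in vehicle libraries (0.78 ± 0.10, adjusted p = 1.2e-04). In TPM KCNJ6 averaged 1.28 ± 0.189 in treated and 1.01 ± 0.197 in vehicle libraries, and these groups overlapped. Its call was kept in all 17 settings, among them the effective length offset. By TPM the 4 GIRK genes summed to 43.6 ± 3.32 in treated and 25.3 ± 3.46 in vehicle libraries, nearly all of it KCNJ3.

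**Figure D3:**
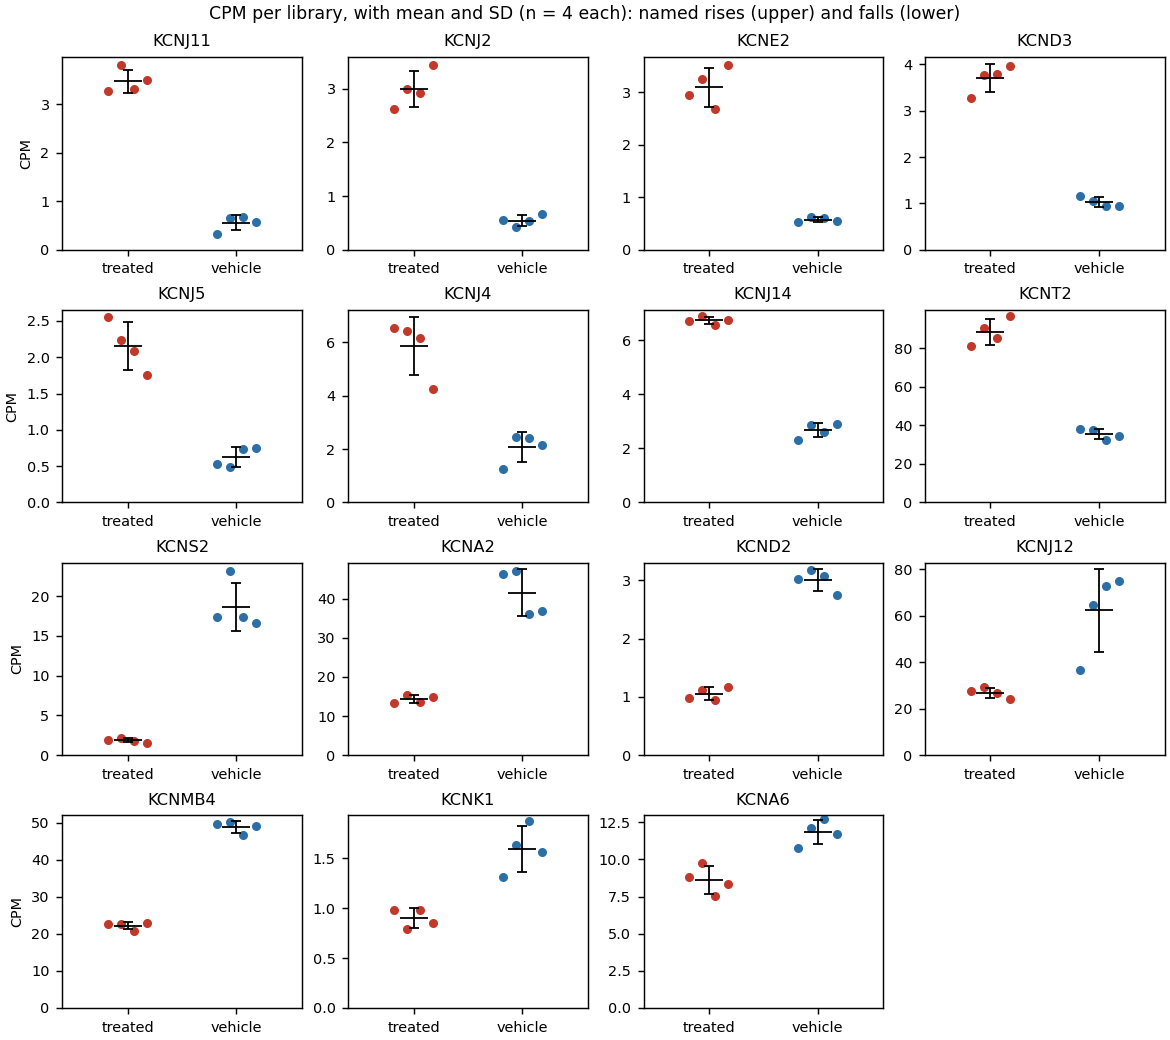
CPM in each library for 8 rises (upper panels) and 7 falls (lower panels) among the largest of called channel genes with a mean of at least 1 CPM, each treated group left of its vehicle group, with mean and SD (n = 4 each). In all 15 panels the 2 groups do not overlap, and the vehicle values of KCNJ12 spread the most, from 36.6 to 75.2 CPM.

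Of the 23 voltage-gated pore genes, 8 rose, 5 fell and 10 did not pass the test. That is 56.5% called, against 57.9% of all genes tested. The summed TPM of the 23 was 280 ± 15.1 in treated and 282 ± 29.9 in vehicle libraries. The Kv4 genes, whose A-type channels delay the return to threshold, moved in both directions. KCND3 had 3.27, 3.78, 3.79 and 3.98 CPM in treated libraries, against 1.16, 1.06, 0.933 and 0.950 CPM in vehicle libraries (1.85 ± 0.12, edgeR adjusted p = 8.9e-07). KCND2 had 0.986, 1.12, 0.941 and 1.17 CPM in treated libraries, against 3.03, 3.17, 3.08 and 2.75 CPM in vehicle libraries (-1.51 ± 0.12, adjusted p = 3.1e-06). In both genes the groups were clear of each other. KCND1, the most abundant of them by TPM, rose by 1.07 ± 0.14 on the log2 scale (edgeR, adjusted p = 9.1e-05). By TPM, KCND2 made up 5.68 ± 1.16% of the Kv4 sum in treated libraries and 28.7 ± 1.33% in vehicle libraries, and KCND3 14.8 ± 3.03% and 7.24 ± 0.613%.

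The Kv1 genes fell or did not pass the test. KCNA2, a low-threshold axonal pore, lies on chromosome 1 (hg38, 110519837 to 110631474, minus strand) and had 13.3, 15.3, 13.5 and 14.9 CPM in treated libraries, against 46.4, 47.1, 36.2 and 36.8 CPM in vehicle libraries. The groups did not overlap, and the log2 change was -1.55 ± 0.11 (edgeR, adjusted p = 1.4e-06). KCNA6 had 8.82, 9.77, 7.56 and 8.35 CPM in treated and 10.8, 12.1, 12.7 and 11.7 CPM in vehicle libraries (-0.46 ± 0.09, adjusted p = 0.0020). All exonic bases of KCNA6 also belong, on the same strand, to exons of GALNT8 in the annotation, and GALNT8 rose by 0.76, so reads of the pair cannot be divided with certainty. KCNC1 and KCNC4, Kv3 pores, did not pass the test.

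In the Kv7 family KCNQ1 rose, at a low level, and KCNQ3 and KCNQ5 did not pass. KCNQ1, the slow repolarising pore of heart and epithelia, averaged 1.43 ± 0.0788 CPM in treated and 0.382 ± 0.0672 CPM in vehicle libraries (1.89 ± 0.16, edgeR adjusted p = 4.7e-06). An antisense gene that shares 2.72% of its exonic bases, KCNQ1OT1, rose by 0.92. Of the 7 KCNH genes, KCNH2, KCNH3 and KCNH6 rose by 0.41 to 0.55 on the log2 scale and KCNH1 fell by 0.46 ± 0.12 (edgeR, adjusted p = 0.0080). These calls are 57.1% of the group, against 57.9% of all genes tested. The call of KCNH3 (0.51 ± 0.19, adjusted p = 0.042) was kept in 10 of 17 settings.

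The silent subunits of the KCNF, KCNG and KCNS groups, which form channels only with KCNB pores, held the largest fall. KCNS2, on chromosome 8, had 1.96, 2.17, 1.81 and 1.57 CPM in the treated libraries, against 17.4, 23.1, 17.4 and 16.7 CPM in the vehicle libraries. The highest treated value was far under the lowest vehicle value, and the log2 change was -3.31 ± 0.14 (edgeR, adjusted p = 7.4e-08). KCNS1 and KCNG4 also fell, by 1.15 ± 0.26 and 1.33 ± 0.26 on the log2 scale (adjusted p = 0.0031 and 0.0014), both below 1 CPM in all libraries. KCNG1 had 85 reads over the treated and 3 over the vehicle libraries, a ratio of 28.5 with a 95% exact interval of 9.44 to 141 that covers counting error only, and it too passed the limit only through the treated libraries. KCNF1, KCNG3 and KCNS3 did not pass the test. With 1 rise and 3 falls, 57.1% of the 7 silent subunits were called, against 57.9% of all genes tested. Summed TPM of the 7 silent subunits was 2.47 ± 0.154 in treated and 8.99 ± 1.72 in vehicle libraries, a difference made almost wholly by KCNS2.

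Two-pore channels, which carry background current, were split, with 3 higher, 4 lower and 2 not past the test among 9 genes. That is 77.8% called, against 57.9% of all genes tested. KCNK3 and KCNK9, acid-sensitive TASK channels that can pair with each other, rose by 1.29 ± 0.12 and 0.56 ± 0.08 on the log2 scale (edgeR, adjusted p = 1.1e-05 and 1.5e-04). For KCNK9 the rise is of all transcripts together, and 42.6% of its reads were assigned to coding ones. Its coding transcripts moved in both directions, as given under other observations. KCNK3 averaged 17.7 ± 1.89 CPM in treated and 7.24 ± 1.10 CPM in vehicle libraries. KCNK12 also rose (0.99 ± 0.19, adjusted p = 0.0015). KCNK1, a TWIK channel, had 0.986, 0.789, 0.978 and 0.848 CPM in treated libraries, against 1.31, 1.64, 1.88 and 1.56 CPM in vehicle libraries, and all treated values were below all vehicle values (-0.83 ± 0.15, adjusted p = 8.1e-04). KCNK10, a mechanosensitive TREK channel, fell by 1.65 ± 0.21 on the log2 scale and averaged 0.147 CPM in treated and 0.463 CPM in vehicle libraries. KCNK5 and KCNK6 fell by 0.84 ± 0.21 and 0.41 ± 0.10 (edgeR, adjusted p = 7.5e-05 for KCNK10, 0.0055 for KCNK5 and 0.0054 for KCNK6).

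Of the 6 calcium- or sodium-activated pores 4 rose and none fell. That is 66.7% called, against 57.9% of all genes tested. The summed TPM of the 6 was 60.2 ± 0.818 in treated and 37.9 ± 6.69 in vehicle libraries, and KCNT2 carried most of the difference. KCNT2, the sodium-activated Slick pore, had 81.2, 90.5, 85.5 and 96.6 CPM in treated libraries, against 37.8, 37.8, 32.2 and 34.4 CPM in vehicle libraries. The groups were far apart, with a log2 change of 1.31 ± 0.08 (edgeR, adjusted p = 6.0e-07). KCNT1, its Slack relative, rose by 0.71 ± 0.14 (adjusted p = 0.0016). KCNMA1, the BK pore opened by calcium and voltage together, rose by 0.45 ± 0.11 (adjusted p = 0.0062), but by 0.19 (adjusted p = 0.15) once effective transcript lengths were allowed for. The small-conductance gene KCNN3 was called at 0.39 ± 0.15 (adjusted p = 0.045) in 5 of 17 settings, and KCNN1 and KCNN2 were not called.

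Among 17 auxiliary or regulatory genes 8 rose, 1 fell and 8 did not pass. That is 52.9% called, against 57.9% of all genes tested. KCNE2, a single-pass partner of KCNQ1 and KCNH2, lies on chromosome 21 (hg38, 34364024 to 34371389, plus strand) and had 2.94, 3.24, 2.67 and 3.52 CPM in treated libraries, against 0.518, 0.624, 0.593 and 0.544 CPM in vehicle libraries. No treated value came near the vehicle range, and the log2 change was 2.44 ± 0.13 (edgeR, adjusted p = 3.4e-07). An antisense gene covers 34.2% of its exonic bases, had a mean of 20.5 reads and fell. How reads were divided between the pair was not tested. KCNE3 had 86 reads over the treated and 2 over the vehicle libraries (ratio 43.3, 95% exact interval 11.6 to 363), and KCNE4 had 64 and 16 (ratio 4.03, interval 2.30 to 7.46). Both are among the 72 genes only because their treated libraries were high, so their calls and ratios describe genes picked in that direction. KCNE1 and KCNE5 did not pass the test.

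The BK beta subunits moved apart. KCNMB4, the neuronal one that slows channel opening, had 22.6, 22.7, 20.7 and 22.9 CPM in treated libraries, against 49.6, 50.1, 46.5 and 49.0 CPM in vehicle libraries. Both groups were tight and apart, with a log2 change of -1.14 ± 0.06 (edgeR, adjusted p = 3.4e-07). KCNMB2, which inactivates the channel, rose by 2.46 ± 0.21 (adjusted p = 6.5e-06), to 0.593 ± 0.0815 CPM in treated libraries, against 0.106 ± 0.0259 CPM in vehicle libraries. By TPM, KCNMB4 made up 76.5 ± 1.92% of the 4 beta subunits in treated and 91.1 ± 1.57% in vehicle libraries. Of the KCNIP genes, calcium-sensing partners of Kv4 pores, KCNIP1, KCNIP3 and KCNIP4 rose by 0.98 ± 0.12, 1.02 ± 0.22 and 0.62 ± 0.15 on the log2 scale (edgeR, adjusted p = 7.1e-05, 0.0030 and 0.0049), and KCNIP2 did not pass. For KCNIP3 only 9.2% of reads were assigned to coding transcripts. KCNAB2, a Kv1 beta subunit, rose by 0.69 ± 0.11 (adjusted p = 4.3e-04), while KCNAB1 and KCNAB3 did not pass.

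**Figure D4:**
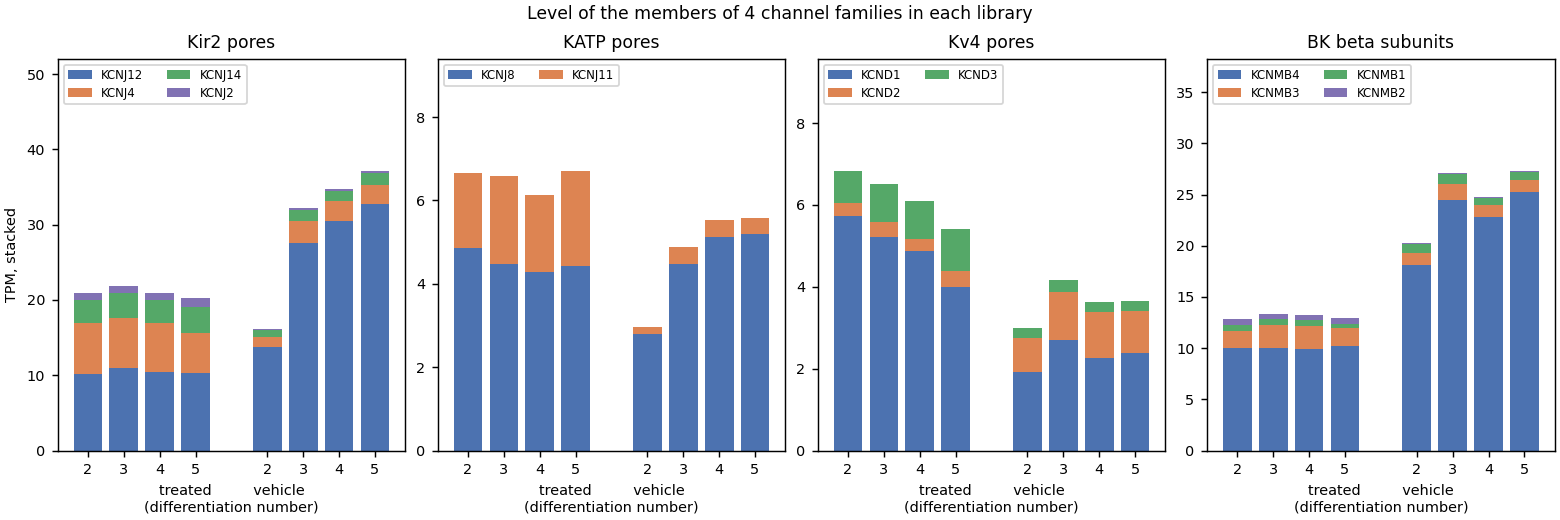
Stacked TPM of the genes of 4 channel families in each library, treated libraries left of vehicle libraries, numbered by differentiation. KCNJ12 is 49.8% of the Kir2 sum in treated and 86.8% in vehicle libraries, KCNJ11 is 30.8% and 7.20% of the ATP-sensitive pores, KCND2 is 5.68% and 28.7% of Kv4, and KCNMB4 is 76.5% and 91.1% of the BK beta subunits; vehicle replicate 2 has the lowest vehicle sum in all 4.

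Transcript usage within a gene was compared next, for the 32 channel genes with at least 2 transcripts of sufficient depth. The share of reads by transcript moved most in KCNT2. Usage was called for 4 genes, KCNT2, KCNS2, KCNH6 and KCNJ3 (edgeR diffSpliceDGE, Simes adjusted p = 6.0e-07, 1.4e-04, 0.044 and 0.047), or 12.5%, against 8.61% of the 11746 genes tested overall. KCNT2 was the one gene called in all 13 settings, whereas KCNH6 was called in 2, KCNJ3 in 5 and KCNS2 in 8. KCNS2 could not be tested in the settings that left out a vehicle library. Its transcript KCNS2-202 had 0 reads in every treated library and so reached the read limit only through the vehicle libraries. The direction of the KCNS2 usage call was therefore set by the choice of transcripts, which its adjusted p does not allow for. The 4 genes and the 12.5% include this call. A second method, limma diffSplice, called 7 channel genes, of which KCNT2 and KCNJ3 were shared. On simulated data both methods made more false calls than the threshold allows for some kinds of spread between libraries, so the usage calls are less certain than their adjusted p-values say. In KCNT2, transcript KCNT2-202 took 54.6, 52.5, 53.6 and 56.6% of the gene's reads in treated libraries, against 11.1, 15.6, 2.72 and 15.3% in vehicle libraries. KCNT2-201 took 25.0, 27.0, 27.7 and 26.7% in treated libraries, against 58.2, 60.6, 73.5 and 65.1% in vehicle libraries. The groups were apart in both transcripts and in opposite directions. In reads, KCNT2-202 averaged 4671 in treated and 434 in vehicle libraries, whereas KCNT2-201 averaged 2289 and 2390, so the added reads of the gene were mostly assigned to KCNT2-202.

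**Figure D5:**
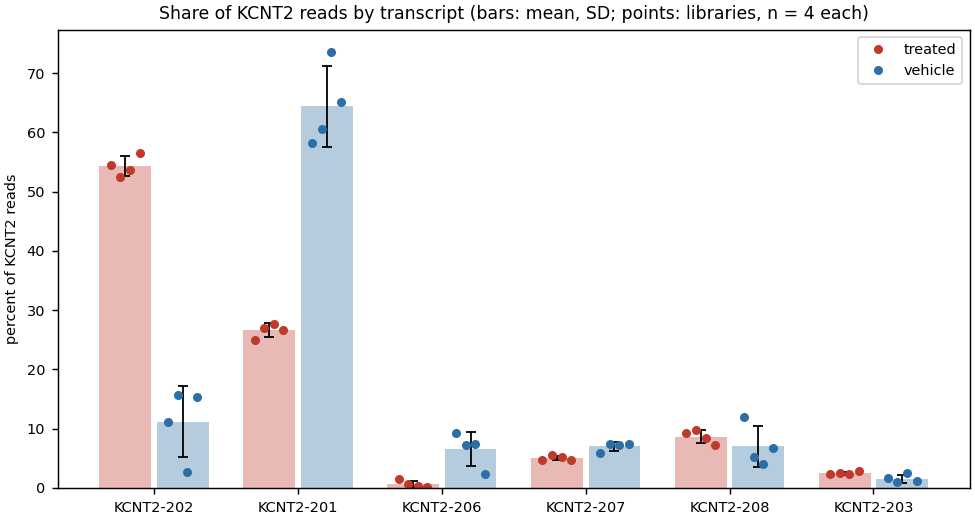
Percent of KCNT2 reads assigned to each of 6 transcripts, treated bars left of vehicle bars (bars are means, error bars the SD, points the 4 libraries of each group). KCNT2-202 lies at 52.5 to 56.6% in treated and 2.72 to 15.6% in vehicle libraries, and KCNT2-201 shows the reverse order.

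In the annotation both are coding, KCNT2-202 with 27 exons and 1111 codons and KCNT2-201 with 28 exons and 1135 codons, and their first bases differ. KCNT2 lies on the minus strand of chromosome 1 (hg38, 196225779 to 196609225), and KCNT2-201 starts 814 bases upstream of KCNT2-202. Their ends differ too (196228139 for KCNT2-201 and 196225779 for KCNT2-202), so the reads gained by KCNT2-202 cannot be placed at its start. KCNT2-203 and KCNT2-206 share a first base at 196608359. They averaged 214 and 53.3 reads in treated libraries, against 56.1 and 241 in vehicle libraries. The promoter window that RefSeq gives for KCNT2 (GRCh38.p14, chr1:196608391-196608690, minus strand, 250 bases before to 50 after the start) lies at the KCNT2-202 start. KCNT2-208 and KCNT2-207 also start within it, at 196608495 and 196608560. They averaged 739 and 434 reads in treated and 259 and 263 in vehicle libraries. The window is shown because reads assigned to KCNT2-202 rose. It is written 5′ to 3′, with capitals marking the match to TGATGNAA, the composite element of ATF4 and C/EBP factors, which reads TGATGCAA on the other strand.
KCNT2 promoter: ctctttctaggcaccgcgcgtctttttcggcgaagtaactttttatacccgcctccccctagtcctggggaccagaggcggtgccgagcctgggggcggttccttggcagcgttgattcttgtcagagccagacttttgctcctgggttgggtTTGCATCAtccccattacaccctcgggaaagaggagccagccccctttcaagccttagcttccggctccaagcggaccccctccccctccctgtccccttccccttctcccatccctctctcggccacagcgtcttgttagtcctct
The match lies 90 bases upstream of the RefSeq start and 119 bases upstream of the first base of KCNT2-202. It is also 35 bases upstream of the first base of KCNT2-208, and it lies downstream of the first base of KCNT2-207. Windows were available in the table for 51 of the 72 channel genes, and KCNT2 was the only one of them with TGATGNAA on either strand, a share of 1.96%, against 4.46% of the 27305 genes with a window. The full cyclic AMP element TGACGTCA was found in KCNF1 alone, against 2.25% of all genes with a window, and KCNF1 did not change past the threshold (0.02 ± 0.16, edgeR adjusted p = 0.92). A match is a description of these letters and no measurement of binding.

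In KCNS2, KCNS2-202, which starts 509 bases after and ends 700 bases before KCNS2-201 and has the same 477 codons, was listed at 0 reads in all 4 treated libraries, against 34.6, 5.70, 20.2 and 18.4% of the gene's reads in vehicle libraries. The treated libraries averaged 182 reads for the whole gene. When any 1 vehicle library was left out, KCNS2-202 missed the read limit and usage of KCNS2 could not be tested. In KCNH6, an ERG-type pore gene, KCNH6-201 held 81.7 ± 6.15% of the gene's reads in treated libraries and 61.7 ± 5.71% in vehicle libraries, and KCNH6-206, annotated as subject to nonsense-mediated decay, took 1.68 ± 1.35% and 13.0 ± 8.22%. In KCNJ3, KCNJ3-201 took 43.0 ± 2.13% and 36.3 ± 6.23%, and KCNJ3-203 took 26.1 ± 1.40% and 28.7 ± 2.87%, and the groups overlapped in both. The noncoding KCNJ3-202 took 0.286, 0.0640, 0.226 and 0% in treated libraries, against 0.832, 0.487, 0.876 and 0.690% in vehicle libraries. These groups were apart and gave the largest relative change of the 3 tested transcripts, on an average of 11.7 reads in treated and 32.2 reads in vehicle libraries. For KCNJ3 only 68.2% of reads were in transcripts matched to the annotation used, and its transcripts outside it were not tested.

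Genes outside the KCN group that carry potassium or assemble its channels were counted from lists. Of 24 tested channel partners, 7 rose (29.2%) and 10 fell (41.7%), against 27.7% higher and 30.2% lower among all genes tested, with a median log2 change of -0.03. LGI1, a secreted ligand of ADAM22, and DLG4, the scaffold PSD-95, rose by 2.04 ± 0.15 and 0.82 ± 0.07 on the log2 scale (edgeR, adjusted p = 2.5e-06 and 6.5e-06). LRRC55, a BK gamma subunit, fell by 1.56 ± 0.08 and ADAM22 by 0.79 ± 0.08 (adjusted p = 1.7e-07 and 1.7e-05). LRRC55 had 34.9, 35.1, 30.3 and 31.5 CPM in treated libraries, against 106, 97.5, 90.2 and 94.6 CPM in vehicle libraries, so it was lower in every treated library, as KCNMB4 was.

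Of 12 potassium pump and cotransporter genes 7 rose (58.3%) and 2 fell (16.7%), against the same 27.7% and 30.2% of all genes, with a median of 0.21. SLC12A7, a potassium-chloride cotransporter, rose by 1.51 ± 0.13 on the log2 scale (edgeR, adjusted p = 4.9e-06). The pump subunit ATP1B2 fell by 0.56 ± 0.20 (adjusted p = 0.032), but by 0.31 (adjusted p = 0.034) without vehicle replicate 2, and it did not pass without treated replicate 4 (adjusted p = 0.070) or treated replicate 5 (adjusted p = 0.090). Scaling to library totals alone left 2 of the 12 higher, and leaving out treated replicate 4 or vehicle replicate 4 left 4. Of 8 potassium channels and exchangers of organelles 2 rose (25.0%) and 2 fell (25.0%), both under the shares over all genes. Those that rose were the trimeric intracellular cation channels TMEM38A and TMEM38B (0.70 ± 0.13 and 0.63 ± 0.08, adjusted p = 8.2e-04 and 5.8e-05). CCDC51, the pore of the mitochondrial ATP-sensitive channel, fell by 0.50 ± 0.14 and the exchanger SLC9A7 by 0.63 ± 0.09 (adjusted p = 0.011 and 2.3e-04).

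The authors' deposited table of their own comparison lists 52 of the 72 channel genes, 24 higher and 11 lower at an FDR under 0.05. All 35 were called here in the same direction. KCNN3 was called here and not in the authors' deposited table, and 9 genes called here were not listed in it. KCNA6 stood out, with a log2 fold change of -9.23 and a signal of 0 in all 4 treated libraries and in vehicle replicates 3 and 5 in the authors' deposited table, against -0.46 here.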

How the data were processed

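RNA was sequenced from 4 treated and 4 vehicle differentiations, with 1.3 µg of total RNA entering each KAPA mRNA HyperPrep library, per the labels' protocols. For each library the authors deposited 2 tables, of genes and of transcripts; per the file headers, both give an estimated count, an effective length and a TPM value. As to the quantifier and its strand setting, these were not given in the sources used here. HISAT2, SAMtools, StringTie and the build hg38 are named in the submitters' processing notes. A table of the whole series, also from the authors, holds a signal per library, a log2 fold change and an FDR (an adjusted p-value) per gene, per the file headers; these values were used only where that table is named. Tables of long noncoding RNA were not used here.

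Estimated counts were rounded and fitted with edgeR 4.0.16 (R 4.3.3): filterByExpr, TMM factors, quasi-likelihood F-test of treated over vehicle on all 8 libraries, Benjamini-Hochberg adjustment over the 19785 genes tested, called at an adjusted p under 0.05. SE is the size of the log2 fold change divided by the square root of F. CPM use TMM-scaled library sizes. Values are given as mean ± SD over 4 libraries for levels and as log2 fold change ± SE for tests. Transcript usage was tested with edgeR diffSpliceDGE on transcripts that reached 10 reads in 4 or more libraries. The 72 genes were matched by Ensembl ID to symbols and to GENCODE 29 types (67 by exact versioned ID); 202856 of 253512 transcripts matched GENCODE 29. Exon overlaps and coordinates come from GENCODE 29. The gene-level and usage tests were tested on simulated data. 

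Values were printed per library for the 8 largest rises and 8 largest falls among called genes with a mean of at least 1 CPM and for the 6 highest by TPM. Partner genes were named by smallest adjusted p, up to 2 per direction and list, and ABCC8 and ABCC9 beside their pores. Folds, means or reads of further channel genes were added after their values were seen. Some genes that these rules or lists include are not reported here, in the text or the figures, but remain in the counts and sums. The genes and the lists were chosen with earlier results of these data known.

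Alternatives were DESeq2 1.42.0, library totals without TMM, no filter, a filter of 10 reads in 4 libraries, an effective length offset, coding genes only, limma 3.58.1 with voom, differentiation number as a replicate block, and leaving out each library. Protein sequences were not used here. Promoter windows are RefSeq's; those without an entry include KCNAB3, KCNB2, KCNE4, KCNG1, KCNH3, KCNH7, KCNJ11, KCNJ12, KCNJ9, KCNK12, KCNK15, KCNK9, KCNMB4, KCNQ1, KCNQ3, KCNS1 and KCNS2. Intervals of read ratios are exact binomial (Clopper-Pearson) at 95%, on summed reads scaled by library totals.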

Additional observations from a re-analysis of the deposited data

Results flagged for a closer look

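In 6 cases 1 library lay far from the other 3 of its group, by a gap that took up most of the group's range (Dixon's test at its 95% critical value), among 90 sets of group values described for the named genes, subfamily sums, family shares and transcripts. Chance flags about 1 in 20 such groups.

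Treated replicate 5 was low for KCNH2 (62.6 CPM, others 88.5 to 91.6 CPM) and for KCNJ4 (4.27 CPM, others 6.18 to 6.55 CPM). Treated replicate 4 was low for KCNMB4 (20.7 CPM, others 22.6 to 22.9 CPM), a gap small beside the vehicle values of 46.5 CPM and above.

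Vehicle replicate 2 was low for the share of KCNJ3 reads in KCNJ3-201 (27.0%, others 38.5 to 40.2%). Vehicle replicate 3 was high for KCNS2 (23.1 CPM, others 16.7 to 17.4 CPM), all well above the treated libraries. Vehicle replicate 4 was high for the share of KCND2 in the Kv4 sum (30.7%, others 28.0 to 28.2%).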

How the results depend on the processing

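The count of channel genes higher stayed at 28 to 33 and lower at 14 to 17 in the 16 alternatives. Of the 45 called channel genes, 41 were called in the same direction in all 17 settings, the exceptions being KCNH2, KCNH3, KCNN3 and KCNMA1. Without vehicle replicate 2, 33 were higher and 16 lower, all 45 calls were kept, and 4 were added, among them KCNH7, KCNMB3 and KCNK7. Library totals without TMM moved the median of all genes by -0.10, turned the uncalled log2 fold change of KCNB2 to -0.034 (adjusted p = 0.73) and left 2 pump and cotransporter genes higher. Leaving out 1 library gave 4 to 8 of these higher and 1 to 2 lower. Usage calls depended most on the setting: 2 genes with at least 50 reads per transcript, 10 with the gene-level F-test, 7 with limma diffSplice (chosen after seeing the data) and 1 to 3 when 1 library was left out. With CPM in place of TPM, the treated over vehicle ratio of the summed level was 1.34 for KCNK (1.13 in TPM) and 1.36 for KCNMA (1.10), and it turned to 0.988 for KCNG (1.41) and to 0.970 for the auxiliary or regulatory genes (1.13). The causes were not tested. Pairing by differentiation number was not seen: same-numbered libraries deviated together with correlations of -0.08, 0.03, 0.03 and 0.00, and no treated library correlated best with its own number. These are deviations from the group mean, which vehicle replicate 2 shifts for every vehicle library, so the correlations cannot exclude shared batches. With the number as a replicate block, 29 channel genes were higher and 15 lower, and usage was called for 2. Depth limits KCNE3, KCNE4, KCNG1, KCNG3 and KCNS3, each with 11 or fewer reads per library on average, and reads shared with overlapping genes limit KCNA6, KCNRG and KCNMB3. Effective lengths limit KCNMA1.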

Other observations

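KCNRG, a regulator of Kv1 assembly, shares 66.8% of its exonic bases with TRIM13 on the same strand, which fell by 0.81 on the log2 scale. KCNRG did not pass the test at -0.51 ± 0.25 (edgeR, adjusted p = 0.11). KCNK15 shares 19.5% of its exonic bases with RIMS4 on the opposite strand. RIMS4 rose by 0.96 on the log2 scale, and KCNK15 did not pass the test at -0.35 ± 0.20 (edgeR, adjusted p = 0.17).

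For KCNK9, a TASK pore, 42.6% of reads were assigned to coding transcripts. The transcript KCNK9-204, annotated as subject to nonsense-mediated decay, held 27.1 ± 5.18% of the gene's reads in treated libraries and 12.8 ± 4.83% in vehicle libraries (SD, n = 4 each). In reads, KCNK9-204 and KCNK9-210, annotated alike, averaged 408 and 533 in treated and 146 and 377 in vehicle libraries. The coding KCNK9-203, KCNK9-208 and KCNK9-207 averaged 252, 287 and 0 in treated and 309, 198 and 48.1 in vehicle libraries. Usage of KCNK9 did not pass the test (edgeR diffSpliceDGE, Simes adjusted p = 0.75) and was called in 2 of 13 settings, the gene-level F-test and limma diffSplice. For KCNE1 the share of reads in coding transcripts was 22.4%.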
